A study of Homo sapiens with 4 samples.

Results

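The spliceosome and SR protein genes are the human genes whose symbols begin with SNRP, SF3A, SF3B, or with SRSF or PRPF followed by a digit. The RefSeq gene table holds 46 such protein-coding genes among 19974 on chromosomes 1 to 22 and X. Their STAT5A occupancy was read from 2 lists of ChIP-seq peaks. The knockdown list credited 44 of its 31227 peaks to 38 of these genes, and the wild-type list credited 49 of its 55269 peaks to 37 of them.

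The lists come from ARP1 cells, a long-established line from human multiple myeloma that the labels place in bone marrow. The groups were a STAT5A immunoprecipitation (antibody to STAT5a in the labels) and an input without antibody from cells with a YTHDF2 knockdown, and the same pair from wildtype cells, with 1 library each. No drug treatment is labelled in any group, and the sources used here do not say how the knockdown was made or whether it came from 1 clone. STAT5A is a transcription factor activated by JAK kinases downstream of cytokine receptors, and YTHDF2 is a cytoplasmic reader of N6-methyladenosine that promotes decay of the RNAs it binds. A peak list measures where a protein sits on chromatin and not how much RNA a gene makes, so it cannot check the knockdown. Each condition has 1 list, no difference between the lists has a replicate check, and none was tested. The lists carry no read counts, so depth is unknown. Peak positions are on the hg38 build. Fold enrichments and q-values are the authors' own, and folds from both lists stand next to each other here as plain description.

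The spliceosome removes introns from pre-mRNA in a series of RNA and protein assemblies. The Sm proteins form a ring around the spliceosomal small nuclear RNAs, the SF3A and SF3B complexes belong to the U2 particle that recognises the branch point, and the PRPF proteins act in the tri-snRNP and in later catalytic steps. SR proteins bind exonic enhancers and help define exons, and recurrent mutations of SF3B1 and SRSF2 are known from blood cancers.

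At these genes STAT5A peaks lay mostly at gene starts. A peak within 1 kb of a transcript start, here called a promoter peak, was credited to 37 of 46 genes (80.4%) in the knockdown list, where 56.1% of all protein-coding genes had one. In the wild-type list it was credited to 36 of 46 (78.3%), beside 64.7% of all protein-coding genes. Both lists held a promoter peak for 33 of 46 (71.7%), beside 53.6% of all. Only the knockdown list did so for 4 genes (8.70%, beside 2.42% of all), and only the wild-type list for 3 (6.52%, beside 11.0% of all). The 6 genes with a promoter peak in neither list included SNRPF, SF3B1, PRPF38A, PRPF4 and SRSF9. Counting peaks only from a fold of 5 upwards, the numbers were 18 of 46 (39.1%) in knockdown, beside 30.7% of all, 33 of 46 (71.7%) in wild type, beside 60.6% of all, and 17 in both, beside 29.8% of all. The order of the lists thus depended on the fold required. These shares describe 1 list each, and nothing particular to splicing genes was tested from them.

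**Figure D1:**
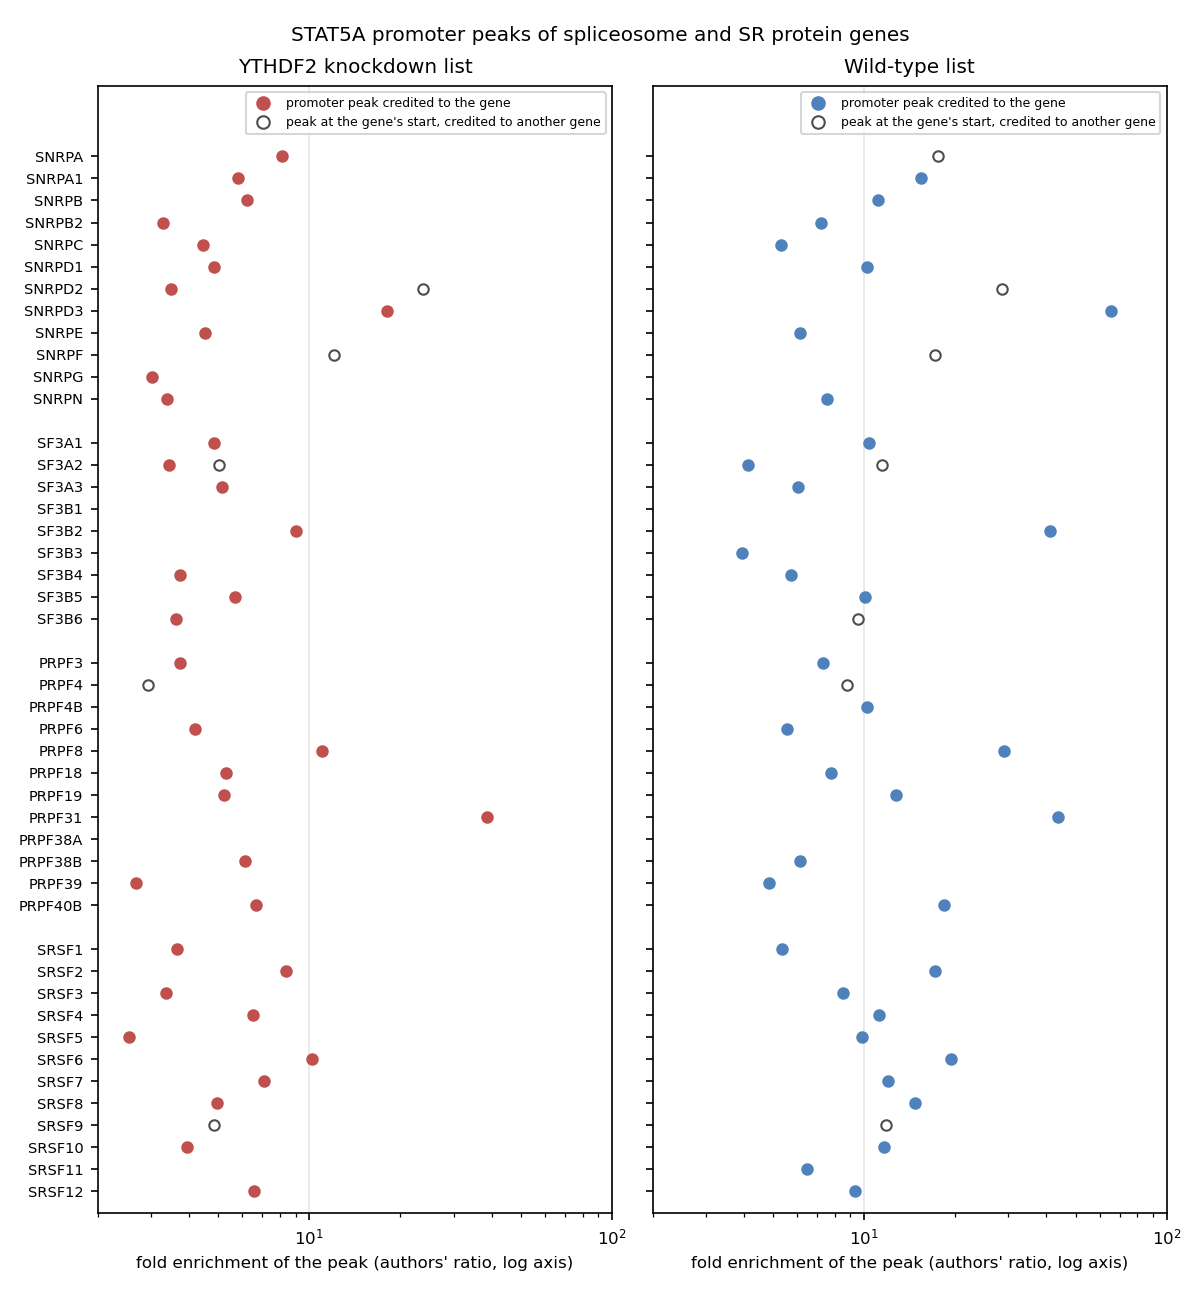
Fold enrichment (authors' ratio, log axis) of the strongest promoter peak of the spliceosome and SR protein genes in the knockdown list (left) and the wild-type list (right). Filled circles are peaks credited to the gene, and open circles are peaks at its start credited to another gene. PRPF31 (38.6) and SNRPD3 (18.0) stand highest among credited peaks in the knockdown list, and SNRPD3 (65.3) and PRPF31 (43.6) in the wild-type list.

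Promoters of 40 of the 46 genes were found in the RefSeq table (GRCh38.p14), by symbol or, for PRPF4B, by gene identifier. The following 4 are shown because they belong to genes of the highest promoter folds in their functional groups. Each runs 5′ to 3′ along the gene from 250 bases before to 50 bases after its start. Capitals mark matches to the motifs counted in the promoters, read on either strand. PRPF31 is at chr19:54115504-54115803 on the plus strand with a CCAAT (NF-Y) match, SNRPD3 at chr22:24555400-24555699 on the plus strand with a GGGCGG (SP/KLF) match, SF3B2 at chr11:66052114-66052413 on the plus strand with CCGGAAG (ETS) and AAGATGGC (YY1) matches, and SRSF6 at chr20:43457646-43457945 on the plus strand with GGGCGG matches.
PRPF31: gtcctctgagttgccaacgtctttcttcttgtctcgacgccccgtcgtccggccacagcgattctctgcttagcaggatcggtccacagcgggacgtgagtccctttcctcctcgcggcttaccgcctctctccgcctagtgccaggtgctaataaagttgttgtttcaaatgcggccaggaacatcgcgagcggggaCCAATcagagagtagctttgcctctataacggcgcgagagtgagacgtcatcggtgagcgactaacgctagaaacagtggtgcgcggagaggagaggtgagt
SNRPD3: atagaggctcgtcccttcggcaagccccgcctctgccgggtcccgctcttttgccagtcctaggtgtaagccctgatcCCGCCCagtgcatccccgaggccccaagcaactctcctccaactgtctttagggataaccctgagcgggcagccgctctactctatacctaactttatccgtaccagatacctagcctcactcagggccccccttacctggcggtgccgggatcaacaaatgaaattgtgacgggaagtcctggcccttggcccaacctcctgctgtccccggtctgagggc
SF3B2: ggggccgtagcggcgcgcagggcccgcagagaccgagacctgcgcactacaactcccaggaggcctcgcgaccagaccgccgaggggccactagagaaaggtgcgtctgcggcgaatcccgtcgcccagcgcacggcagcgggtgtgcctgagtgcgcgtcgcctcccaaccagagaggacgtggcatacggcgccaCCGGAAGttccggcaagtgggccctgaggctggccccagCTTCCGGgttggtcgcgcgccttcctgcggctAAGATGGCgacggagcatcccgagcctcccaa
SRSF6: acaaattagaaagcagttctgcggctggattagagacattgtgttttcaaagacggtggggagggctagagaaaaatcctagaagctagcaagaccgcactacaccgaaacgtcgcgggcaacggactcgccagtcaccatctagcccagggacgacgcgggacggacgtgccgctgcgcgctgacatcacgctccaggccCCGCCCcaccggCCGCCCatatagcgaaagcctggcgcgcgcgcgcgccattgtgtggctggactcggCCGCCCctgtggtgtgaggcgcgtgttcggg

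Among the 12 genes with an SNRP symbol, which encode Sm and U1 or U2 snRNP proteins, 11 had a promoter peak in the knockdown list. In the wild-type list 8 had one, all 8 of them in both. SNRPD3, which encodes a subunit of the Sm ring, had the highest fold. Its knockdown peak at chr22:24554750-24556181 was 1432 bp wide with a fold of 18.0 and a q-value of 8.45e-122, rank 1223 of the list by fold. Its wild-type peak at chr22:24554737-24556176 was 1440 bp wide with a fold of 65.3, a q-value listed at 0 and rank 958. The summits lay 1 bp apart, at -365 bp (knockdown) and -364 bp (wild type) from the gene start of the promoter printed above. SNRPA1, a U2 snRNP protein, had a knockdown peak at chr15:101294810-101295723 (914 bp, fold 5.79, q 1.33e-19, rank 6327) and a wild-type peak at chr15:101294797-101295728 (932 bp, fold 15.4, q 9.45e-69, rank 4235). SNRPB, the gene of the SmB proteins, had a knockdown peak at chr20:2470301-2470821 (521 bp, fold 6.21, q 8.77e-11, rank 4996) and a wild-type peak at chr20:2470315-2470886 (572 bp, fold 11.1, q 1.41e-20, rank 8891). At these 3 genes the peaks of both lists overlapped.

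SNRPC, the U1 snRNP C protein gene, had 3 knockdown peaks and 1 wild-type peak. The knockdown promoter peak at chr6:34756750-34757061 (312 bp, fold 4.44, q 3.01e-08, rank 14642) overlapped the wild-type peak at chr6:34756745-34757073 (329 bp, fold 5.33, q 2.1e-10, rank 33815). The other knockdown peaks were a second promoter peak at chr6:34757451-34757671 (221 bp, fold 2.92, q 0.00123, rank 29838) and a distal one at chr6:34742923-34743184 (262 bp, fold 2.97, q 0.0441, rank 29507), neither with a wild-type peak under it. The remaining snRNP genes with peaks in both lists were SNRPB2, SNRPD1, SNRPE and SNRPN, with folds from 3.29 to 4.85 in the knockdown list and from 6.13 to 10.2 in the wild-type list. At SNRPN, whose transcripts have several starts, the credited promoter peak lay at a start downstream of the RefSeq one.

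SNRPA, SNRPD2 and SNRPG had a promoter peak credited to them in the knockdown list only, but at the first pair of genes the wild-type list held a peak at the start under another name. SNRPA, the U1 snRNP A protein gene, had a knockdown peak at chr19:40750614-40751262 (649 bp, fold 8.10, q 1.47e-39, rank 2537). The wild-type peak that overlapped it, at chr19:40750548-40751231 with a fold of 17.6, was credited to its upstream neighbour C19orf54, now named ACTMAP. At SNRPD2, an Sm ring gene, the small knockdown peak at chr19:45691686-45691944 (259 bp, fold 3.48, q 5.47e-07, rank 25241) overlapped no wild-type peak. A stronger peak at the same promoter was credited to the neighbour QPCTL in both lists, with a fold of 23.8 in knockdown and 28.5 in wild type. SNRPG, the Sm G protein gene, had a knockdown peak at chr2:70294456-70294679 (224 bp, fold 3.01, q 0.0382, rank 29369) whose edge lay 685 bp before a transcript start by the deposited distance. Its summit lay at -999 bp from the RefSeq start, and no wild-type peak lay within 1 kb of that start under any credit.

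Of the 9 genes with an SF3A or SF3B symbol, 7 had a promoter peak in the knockdown list, 7 in the wild-type list and 6 in both. SF3B2 had the highest fold. Its knockdown peak at chr11:66051809-66052734 was 926 bp wide with a fold of 9.03, a q-value of 1.92e-55 and rank 2143, and its wild-type peak at chr11:66051774-66052726 was 953 bp wide with a fold of 41.1, a q-value of 4.87e-257 and rank 1332. SF3A1 had a knockdown peak at chr22:30356648-30356924 (277 bp, fold 4.85, q 2.11e-11, rank 11204) inside a wild-type peak at chr22:30356358-30357216 (859 bp, fold 10.4, q 6.07e-33, rank 10120). SF3B5 had a broad knockdown peak at chr6:144094978-144096359 (1382 bp, fold 5.68, q 5.11e-15, rank 6727) and a wild-type peak of nearly the same extent at chr6:144094963-144096363 (1401 bp, fold 10.1, q 3.33e-25, rank 10752). SF3A3 and SF3B4 also had overlapping peaks in both lists, with folds of 5.13 and 3.74 in the knockdown list and 6.06 and 5.72 in the wild-type list.

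SF3A2 had a promoter peak in both lists by credit, but at different transcript starts. The knockdown peak at chr19:2236918-2237464 (547 bp, fold 3.44, q 4.24e-07, rank 25593) lay at the 5′ start, where a wild-type peak of fold 11.5 credited to the microRNA gene MIR6789 overlapped it. The wild-type promoter peak credited to SF3A2, at chr19:2245414-2245691 (278 bp, fold 4.14, q 0.000549, rank 46976), lay at a downstream start and overlapped no knockdown peak. Its other wild-type peaks were at chr19:2240862-2241541 (680 bp, fold 5.4, q 3.98e-07, rank 33315) and chr19:2246769-2247032 (264 bp, fold 3.52, q 0.004, rank 52444). SF3B6 had a credited promoter peak in the knockdown list only, at chr2:24076135-24076491 (357 bp, fold 3.62, q 2.46e-08, rank 23793), and the wild-type peak that overlapped it, with a fold of 5.78, was credited to its neighbour FAM228B. SF3B3 had one in the wild-type list only, at chr16:70523787-70524012 (226 bp, fold 3.95, q 1.52e-05, rank 48949), with no knockdown peak within 1 kb of either end of the gene. SF3B1, the branch point binding subunit, had no promoter peak. Its sole credited peak was a wild-type one at chr2:197370705-197370929 (225 bp, fold 5.17, q 1.67e-05, rank 35202), in intergenic sequence 22422 bp from a transcript start by the deposited distance. That start is not the RefSeq one at chr2:197435028, which lies farther from the peak.

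Of the 13 PRPF genes, 9 had a promoter peak in the knockdown list and 10 in the wild-type list, all 9 in both. PRPF31, a tri-snRNP protein gene mutated in inherited retinal degeneration, had the highest credited knockdown fold of the 46 genes. Its knockdown peak at chr19:54115133-54115827 was 695 bp wide with a fold of 38.6, a q-value listed at 0 and rank 574. The wild-type peak at chr19:54115185-54115789 was 605 bp wide with a fold of 43.6, a q-value listed at 0 and rank 1276, with a summit 13 bp away. The wild-type list credited 3 further peaks to PRPF31, at chr19:54116105-54116473 (369 bp, fold 5.37, q 1.01e-07, rank 33611) and over exons at chr19:54123597-54124028 (432 bp, fold 7.23, q 2.68e-10, rank 19788) and chr19:54124413-54124761 (349 bp, fold 5.08, q 4.72e-06, rank 36293). None of these 3 overlapped a knockdown peak. The PRPF31 start lies 97 bp from that of TFPT on the other strand, and both STAT5A peaks spanned that distance.

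PRPF8, the scaffold of the catalytic core, had a knockdown peak at chr17:1684399-1685068 (670 bp, fold 11.0, q 2.6e-57, rank 1758) and a wild-type peak at chr17:1684313-1685503 (1191 bp, fold 29.0, q 2.08e-171, rank 1706). PRPF40B, an orthologue of a yeast U1 snRNP protein, had a knockdown peak at chr12:49623389-49623744 (356 bp, fold 6.66, q 2.82e-23, rank 3967) within a wild-type peak at chr12:49622823-49624002 (1180 bp, fold 18.3, q 3.11e-80, rank 2928). The other PRPF genes with peaks in both lists were PRPF3, PRPF6, PRPF18, PRPF19, PRPF38B and PRPF39, with folds from 2.68 to 6.15 in the knockdown list and from 4.84 to 12.7 in the wild-type list. The wild-type fold was the higher number at 32 of the 33 genes with promoter peaks in both lists (97.0%), beside 97.1% of 10715 protein-coding genes, so this order held across the lists as a whole. The exception was PRPF38B, with 6.15 in knockdown and 6.13 in wild type. PRPF4B, a kinase that phosphorylates splicing factors, had a wild-type promoter peak at chr6:4021347-4021857 (511 bp, fold 10.2, q 3.51e-20, rank 10591) with no knockdown counterpart. An upstream peak, at -2551 bp from its start in the knockdown list, was in both lists, with a fold of 4.44 in knockdown at chr6:4018364-4018716 (353 bp, q 3.04e-06, rank 14670) and 10.4 in wild type at chr6:4018240-4018697 (458 bp, q 1.61e-20, rank 10226).

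Of the 12 SR protein genes, 10 had a promoter peak in the knockdown list, 11 in the wild-type list and 10 in both. SRSF6 had the highest fold, with a knockdown peak at chr20:43457283-43458724 (1442 bp, fold 10.2, q 2.01e-35, rank 1867) and a wild-type peak at chr20:43457235-43458754 (1520 bp, fold 19.4, q 1.01e-65, rank 2685). Beyond its promoter each list credited a distal peak to it, at chr20:43389984-43390527 in knockdown (fold 4.79) and chr20:43338765-43339021 in wild type (fold 5.31), and these did not overlap. SRSF2, an SR protein with recurrent mutations in myeloid neoplasms, carried the widest peaks credited to any of the 46 genes, at chr17:76736293-76738033 in knockdown (1741 bp, fold 8.36, q 3.25e-27, rank 2413) and chr17:76736297-76738080 in wild type (1784 bp, fold 17.1, q 6.79e-54, rank 3351). SRSF8 had a knockdown peak at chr11:95067055-95067876 (822 bp, fold 4.94, q 1.04e-08, rank 10610) and a wild-type peak at chr11:95067058-95067727 (670 bp, fold 14.7, q 6.42e-41, rank 4780).

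The other SR genes with peaks in both lists were SRSF1, SRSF3, SRSF4, SRSF5, SRSF7, SRSF10 and SRSF12, with folds from 2.54 to 7.10 in the knockdown list and from 5.36 to 12.0 in the wild-type list. SRSF5, which had a pair of promoter peaks in each list, had the lowest strongest fold of these genes in the knockdown list, 2.54 at rank 30974 of 31227. Its strongest wild-type peak had a fold of 9.85, and ranks in lists of different length are not comparable. SRSF11 had a promoter peak in the wild-type list only, at chr1:70221319-70221770 (452 bp, fold 6.5, q 2.11e-14, rank 23825), with no knockdown peak within 1 kb of its start.

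**Figure D2:**
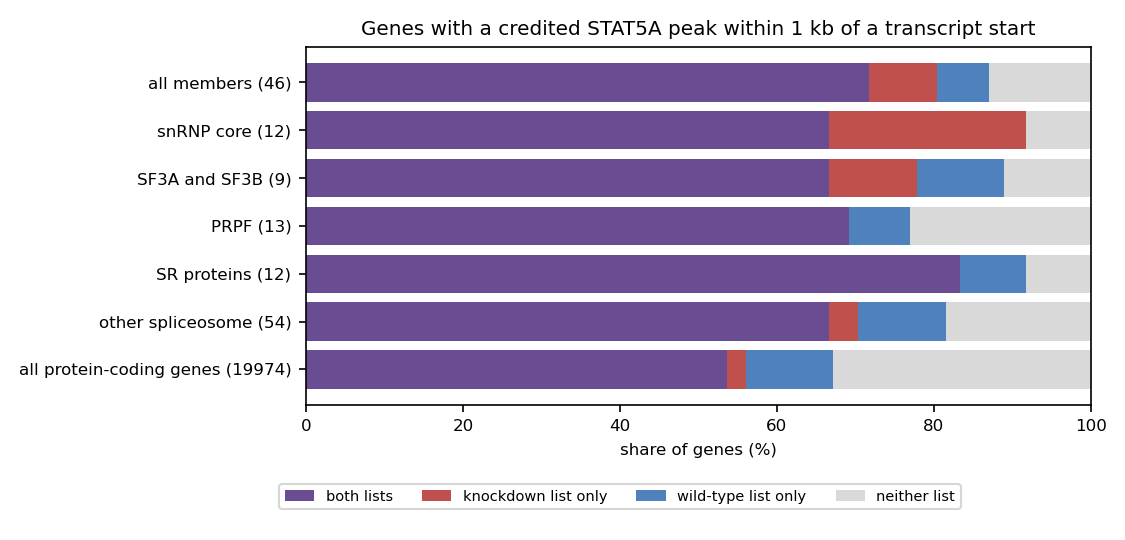
Share of genes (percent, horizontal axis) with a credited promoter peak in both lists, in the knockdown list only, in the wild-type list only and in neither, for all 46 spliceosome and SR protein genes, their 4 functional groups, 54 other spliceosome genes and all protein-coding genes. Both lists held a promoter peak for 71.7% of the 46 genes, 66.7% of the other spliceosome genes and 53.6% of all genes.

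Each peak is credited to 1 gene, and some starts of splicing genes had a peak credited to a neighbour. Another gene on the opposite strand started within 1 kb upstream of 13 of the 40 genes with a RefSeq start (32.5%), beside 18.3% of 15812 protein-coding genes. SNRPF, PRPF4 and SRSF9, which had no credited promoter peak, had a peak at their start in both lists that was credited to another gene. At SNRPF these peaks had a fold of 12.1 in knockdown (chr12:95858736-95859237) and 17.2 in wild type (chr12:95858774-95859241), credited to LOC105369921. At PRPF4, whose start lies 86 bp from that of the anaphase-promoting complex subunit gene CDC26, the folds were 2.92 in knockdown and 8.80 in wild type. At SRSF9, whose start lies 94 bp from that of the dynein light chain gene DYNLL1, they were 4.85 in knockdown and 11.8 in wild type.

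SF3B1 and PRPF38A had no peak at the start under any credit in either list.

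Counted by a peak of any credit within 1 kb of the RefSeq start, 35 of 40 genes (87.5%) were occupied in the knockdown list, beside 62.7% of all protein-coding genes with a start in the table. In the wild-type list 36 of 40 (90.0%) were, beside 72.3%, and 34 of 40 (85.0%) were in both, beside 61.6%. By this count SNRPG was the 1 gene occupied in the knockdown list only, and PRPF4B and SRSF11 were those occupied in the wild-type list only. SNRPA, SNRPD2 and SF3B6 moved to the genes occupied in both lists, so their state depended on how peaks were credited.

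By their medians, promoter peaks of the splicing genes were not stronger than those of other occupied genes. Their strongest promoter peaks had a median fold of 4.94 in the knockdown list (lowest 2.54, highest 38.6), beside 5.22 for all protein-coding genes with a promoter peak there. In the wild-type list the median was 9.99 (lowest 3.95, highest 65.3), beside 11.1. The tenth of each list with the highest folds held the strongest promoter peak of 7 of 37 genes (18.9%) in knockdown, beside 22.1% of all genes with a promoter peak, and of 9 of 36 (25.0%) in wild type, beside 33.6%. PRPF8, PRPF31, SF3B2, SNRPD3, SRSF2 and SRSF6 were in it in both lists. The median width of these peaks was 547 bp in the knockdown list, beside 691 bp for all genes, and 685.5 bp in the wild-type list, beside 896 bp.

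Most peaks at the splicing genes had a counterpart in the other list. With an overlap of at least 1 bp, 37 of 44 knockdown peaks (84.1%, exact Clopper-Pearson 95% interval 69.9 to 93.4%) overlapped a wild-type peak, beside 77.1% of the whole knockdown list. Of the wild-type peaks, 34 of 49 (69.4%, 54.6 to 81.7%) overlapped a knockdown peak, beside 40.4% of the whole wild-type list. Among promoter peaks the shares were 36 of 39 (92.3%, 79.1 to 98.4%) in knockdown, beside 93.8% for all protein-coding genes, and 33 of 38 (86.8%, 71.9 to 95.6%) in wild type, beside 64.2%. With a fold of at least 5, 18 knockdown and 42 wild-type peaks of these genes were left, and the wild-type share was 40.5%. The whole-list share at that minimum is not given here, so the 40.4% above is not its background. The intervals cover counting error only, and the peaks of a gene are not independent samples.

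Peaks beyond 1 kb of a start were few, and 1 in each list had a counterpart in the other. The knockdown list had 5, at PRPF18, PRPF4B, SNRPC, SNRPN and SRSF6, of which 1 overlapped a wild-type peak. The wild-type list had 11, at PRPF31, PRPF39, PRPF4B, SF3A2, SF3B1, SNRPE, SNRPN, SRSF3 and SRSF6, of which 1 overlapped a knockdown peak. In both lists the shared one was the peak upstream of PRPF4B. The wild-type count was 3 when that list was shortened to as many peaks as the knockdown list, below the 5 in knockdown, and with a fold of at least 5 the counts were 0 in knockdown and 7 in wild type. For all protein-coding genes, 61.5% of such knockdown peaks and 24.5% of such wild-type peaks had a counterpart.

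Summit distances were taken only where the strongest promoter peaks of a gene in both lists overlapped, so their closeness is partly set by this choice. Such pairs were found at 32 genes. The median distance between the summits was 44.5 bp (range 1 to 328 bp), beside 53 bp over 9920 protein-coding genes. The summits were within 100 bp of each other at 28 of 32 (87.5%), beside 65.8%. The knockdown peak was the wider of the pair at 5 of 32 (15.6%), beside 21.9%. Median widths in these pairs were 599.5 bp for knockdown peaks and 829 bp for wild-type peaks, beside 732 bp and 983 bp over all pairs. The width of overlapping peaks limits how far apart their summits can lie, and the shares were not adjusted for width. Over the 32 genes the folds of both lists had a Spearman rho of 0.76, beside 0.66 over all pairs. Genes are not replicates, and the points share the same libraries.

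**Figure D3:**
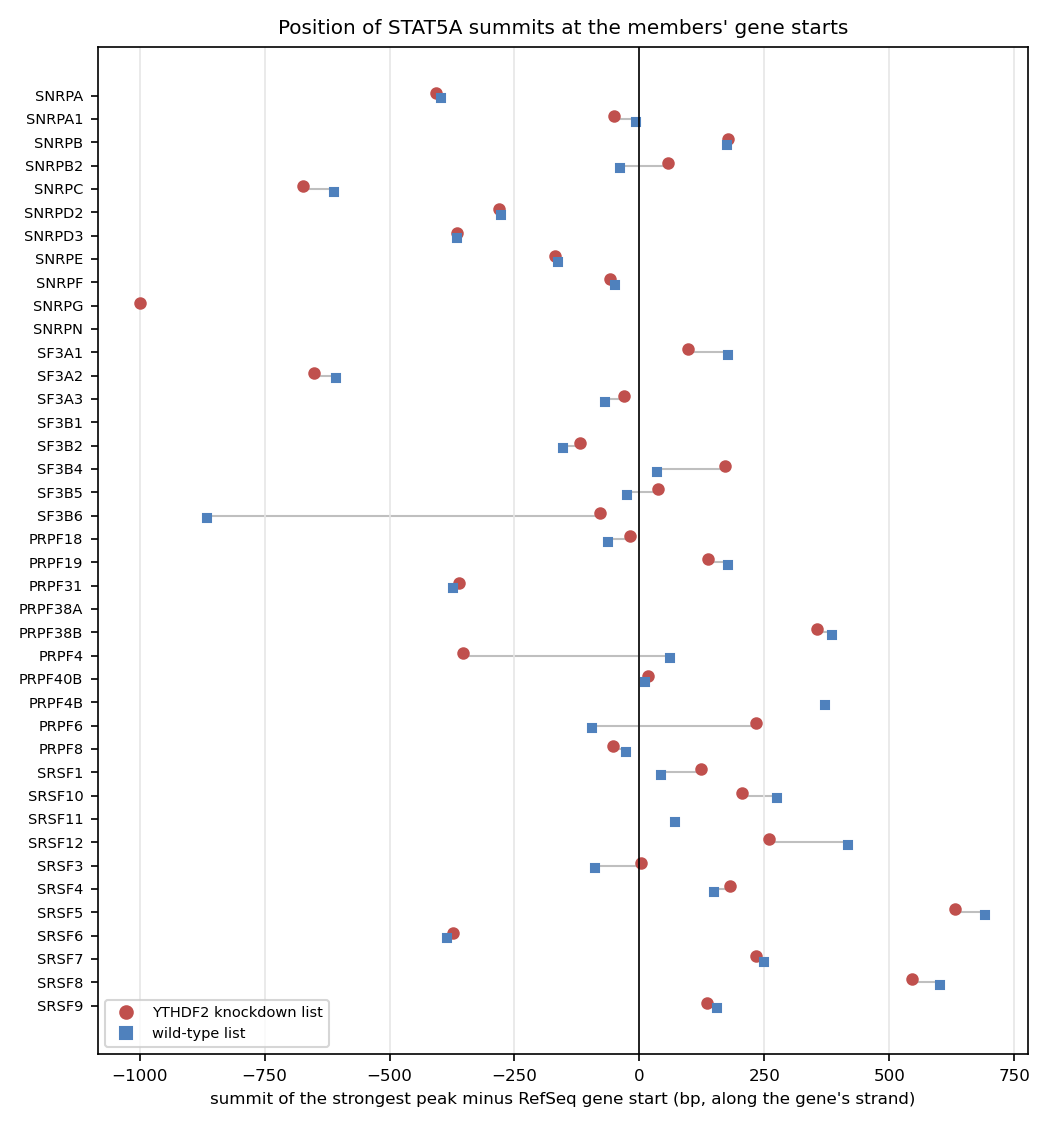
Distance in bp from the RefSeq gene start to the summit of the strongest peak within 1 kb, along the gene's strand (negative is upstream), for the 40 spliceosome and SR protein genes with a start in the table, in the knockdown list (circles) and the wild-type list (squares). A grey line joins both summits of a gene, and a gene with no symbol had no peak there. Median distances were 3 bp in the knockdown list and -15.5 bp in the wild-type list.

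The summits lay on both sides of the gene start. Their median position was 3 bp in knockdown (n = 35 genes) and -15.5 bp in wild type (n = 36 genes), and the median absolute distance was 178 bp in the knockdown list and 169 bp in the wild-type list, beside 167 bp in both lists for all protein-coding genes. Within 250 bp of the start were 22 of 35 (62.9%) in knockdown, beside 65.3% of all, and 22 of 36 (61.1%) in wild type, beside 64.6%. At SF3B6 the positions in the lists belong to different peaks, since the strongest wild-type peak within 1 kb, at chr2:24076832-24077422 with a fold of 9.54 and credited to FAM228B, did not overlap the knockdown peak.

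A STAT motif was rare in the promoters of the splicing genes. The STAT motif TTCNNNGAA, searched on both strands of the 300 bases, was found in 2 of 40 promoters (5%), those of PRPF19 and PRPF4B, beside 6.98% of 15812 protein-coding promoters. The PRPF19 promoter, at chr11:60906536-60906835 on the minus strand, is shown because it is the 1 promoter of the pair with a peak in both lists. Its STAT match is centred 10 bp before the start, and the peak summits lay 147 bp from the match in knockdown and 188 bp in wild type. The SF3B1 promoter, at chr2:197434979-197435278 on the minus strand, is shown beside it as a promoter without a listed peak. Its capitals mark the single CACGTG (E-box) match among the 40 genes. In PRPF19 the capitals mark the STAT match and CCAAT matches.
PRPF19: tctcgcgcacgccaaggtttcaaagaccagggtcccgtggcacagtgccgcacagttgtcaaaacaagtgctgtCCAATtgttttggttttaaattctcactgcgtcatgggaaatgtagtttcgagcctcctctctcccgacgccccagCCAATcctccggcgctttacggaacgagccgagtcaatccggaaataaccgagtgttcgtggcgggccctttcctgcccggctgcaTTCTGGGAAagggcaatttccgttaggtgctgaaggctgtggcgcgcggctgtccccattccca
SF3B1: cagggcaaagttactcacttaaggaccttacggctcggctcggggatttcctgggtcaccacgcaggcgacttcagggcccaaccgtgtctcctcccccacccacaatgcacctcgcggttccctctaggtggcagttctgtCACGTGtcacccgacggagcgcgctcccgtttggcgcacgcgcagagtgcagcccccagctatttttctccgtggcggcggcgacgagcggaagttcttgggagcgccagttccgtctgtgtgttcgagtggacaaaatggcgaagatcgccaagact

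The ETS motif CCGGAAG was the one that differed most in share from the background. It was present in 18 of 40 promoters (45.0%), beside 14.2% of all protein-coding promoters. By functional group it was found in 7 of 11 snRNP, 6 of 8 SF3A and SF3B, 3 of 10 PRPF and 2 of 11 SR protein promoters. The 18 promoters held 25 matches, centred between -238 and 11 bp from the start, with a median of -54 bp and 17 matches within 100 bp of it. The matches of the SF3A and SF3B genes are shown because that group had the highest share. Each line gives the position of the match's centre from the gene start in bp and 27 bases of the strand that reads CCGGAAG, with the motif in capitals. In the order printed, the windows lie at chr22:30356927-30356953 (minus strand), chr19:2236805-2236831 (plus), chr1:37990074-37990100 (plus), chr1:37989998-37990024 (plus), chr11:66052301-66052327 (plus), chr11:66052340-66052366 (minus), chr1:149927813-149927839 (minus), chr2:24076469-24076495 (minus), chr2:24076438-24076464 (plus) and chr2:24076329-24076355 (plus).
SF3A1 at -46: ggggacggtcCCGGAAGtgcgccagtc
SF3A2 at -6: ctcatttgccCCGGAAGtgctttcttt
SF3A3 at -65: tccgcgagtgCCGGAAGtgccccggga
SF3A3 at 11: accaacacggCCGGAAGcaactcctgc
SF3B2 at -50: tacggcgccaCCGGAAGttccggcaag
SF3B2 at -11: cgcgaccaacCCGGAAGctggggccag
SF3B4 at -23: cgtcttcgccCCGGAAGtggaagtcgt
SF3B6 at -156: ggtacagagcCCGGAAGtgtcttggac
SF3B6 at -125: agactcgaggCCGGAAGatggaaaggc
SF3B6 at -16: ccaggacccgCCGGAAGctgttacagc

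Distances from the ETS matches were taken to the summit of the strongest peak within 1 kb of the start, whatever its credit. At SF3A2 (MIR6789) and SNRPD2 (QPCTL) that peak was credited to another gene in both lists, and at SF3B6 (FAM228B) in wild type. The nearest match was a median of 194 bp from the knockdown summit and 214 bp from the wild-type summit. It was within 100 bp at 7 of 17 promoters in knockdown and 6 of 17 in wild type. These distances were not taken over all genes, so nothing particular to these promoters is read from them. Peaks at the genes with an ETS match had a median fold of 4.85 in knockdown and 9.85 in wild type, and those without one 6.35 in knockdown and 12.0 in wild type. Over all protein-coding genes the medians were 5.15 in knockdown and 11.2 in wild type with a match, and 5.32 in knockdown and 11.4 in wild type without. Among all protein-coding genes, 84.4% of those with an ETS match had a peak at the start in knockdown and 91.1% in wild type, beside 59.2% in knockdown and 69.2% in wild type of those without. AAGATGGC (YY1), TGACGTCA (CREB/ATF) and CACGTG (E-box) showed a contrast of the same direction in both lists, and GGGCGG (SP/KLF) a wider one. A peak lay at 81.2% (knockdown) and 91.4% (wild type) of genes with a GGGCGG match, beside 36.8% (knockdown) and 45.4% (wild type) without. The STAT motif went the other way. In the knockdown list 49.4% of genes with a STAT match had a peak, beside 63.7% of those lacking it. The wild-type list had one at 57.1% of genes with a STAT match, beside 73.5%. CCAAT (NF-Y) differed little, with 63.1% beside 62.5% (knockdown) and 70.2% beside 73.5% (wild type). These differences were not tested.

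**Figure D4:**
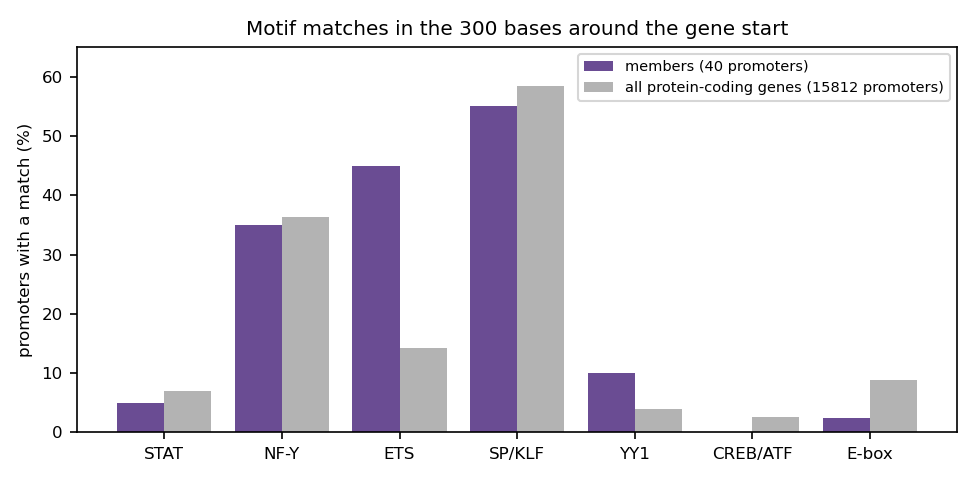
Share of promoters (percent, vertical axis) with at least 1 match to each of 7 motifs on either strand in the 300 bases around the gene start, for the 40 spliceosome and SR protein promoters and for all 15812 protein-coding promoters. The ETS motif was in 45.0% of the splicing gene promoters and 14.2% of all, and the STAT motif in 5% and 6.98%.

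The other motifs were closer to their background shares. CCAAT (NF-Y) was in 14 of 40 promoters (35.0%, beside 36.3% of all). By functional group it was in 7 of 10 PRPF, 4 of 11 snRNP, 1 of 8 SF3A and SF3B and 2 of 11 SR protein promoters. GGGCGG (SP/KLF) was in 22 (55.0%, beside 58.5%). AAGATGGC (YY1) was in 4 (10.0%, beside 3.91%), those of SF3A1, SF3B2, SF3B4 and PRPF38B. CACGTG (E-box) was in 1 (2.50%, beside 8.87%), and TGACGTCA (CREB/ATF) was in 0 of 40, beside 2.59% of all. A match describes letters in the reference sequence and is not a bound site, and its absence from the window says nothing about the factor.

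Other spliceosome genes, which do not carry the 4 symbol stems, were occupied at a similar share in wild type. In knockdown their share was lower than that of the 46 genes. Of 54 such genes, 38 (70.4%) had a promoter peak in knockdown, 42 (77.8%) in wild type and 36 (66.7%) in both. For the 46 genes the shares were 80.4%, 78.3% and 71.7% in the same order, and for all protein-coding genes 56.1%, 64.7% and 53.6%. With a fold of at least 5, the counts were 16 of 54 in knockdown and 38 of 54 in wild type. At that minimum the 46 genes had 39.1% in knockdown and 71.7% in wild type, beside 30.7% and 60.6% of all genes. The share of the 54 genes was then slightly below that of all genes in knockdown and above it in wild type. Among the 54, the highest folds were at the splicing kinase gene CLK4 (107 in knockdown, 246 in wild type), the helicase gene DDX23 (86.0 in knockdown, 275 in wild type), the LSM ring gene LSM4 (25.2 in knockdown, 86.5 in wild type) and the SR-related gene SRRM1 (16.4 in knockdown, 51.3 in wild type). PHF5A (fold 3.56) and EFTUD2 (3.13) had a credited promoter peak in the knockdown list only, and both peaks overlapped a wild-type peak. LSM2, LSM3, U2AF1, XAB2, SYF2 and AQR had one in the wild-type list only, with folds from 4.65 to 10.5. LSM3's peak overlapped a knockdown peak and those of the others did not.

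As a description of the lists, 6 of 9 plasma cell markers (66.7%) had a promoter peak in both, beside 53.6% of all protein-coding genes. TNFRSF17, JCHAIN and SLAMF7 had none in either. Of 5 markers of other cell types, 0 had a promoter peak in knockdown, beside 56.1% of all protein-coding genes. In wild type 3 of them (60%, CD14, GFAP and INS) had one, with folds from 4.30 to 5.82. The wild-type share was 66.7% for the plasma cell markers and 64.7% for all protein-coding genes. Occupancy is not expression, so these markers do not check the cell type.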

How the data were processed

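STAT5A ChIP-seq of ARP1 cells was analysed from 2 deposited peak lists, 1 for YTHDF2 knockdown and 1 for wild type, each from 1 immunoprecipitated library. Adapter and quality trimming tools (cutadapt, Trimmomatic), FastQC, Bowtie2, MACS2 and the hg38 build are named in the submitters' processing notes, without versions or settings. Labels for antibody (STAT5a) and molecule (genomic DNA) were followed where the design text (histone modifications) and titles (input RNA) differ from them. Fold enrichment is a linear ratio deposited by the authors, and its denominator is not stated in the labels or headers. The deposited q-value is the authors' own, under 0.05 throughout, and listed at 0 for 586 knockdown and 1087 wild-type peaks too small for its number format. Read depth is unknown and can change how many peaks are called.

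A promoter peak is one within 1 kb of a transcript start by the deposited distance, taken from the peak edge. Gene identifiers were matched to RefSeq GRCh38.p14, which found 15423 of 15465 in knockdown and 17847 of 17903 in wild type. Promoter sequences and starts came from RefSeq, and SNRPD1, SF3B3, PRPF3, PRPF39 and SRSF2 were among those without an entry. The values of 1 gene are counted in the totals and not reported here. PRPF4B is PRP4K in RefSeq. Overlap needed at least 1 bp and was checked with bedtools 2.31.1, and the counting was tested on simulated data. Python 3.11.15, numpy 2.4.6, pandas 2.3.3, scipy 1.17.1 and matplotlib 3.10.9 were used.

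The genes, gene lists and motifs were chosen with earlier results of these data known. Full values are given for the 3 genes of highest promoter fold in each functional group (the higher of the 2 lists' folds, nearly always the wild-type one), for genes with a promoter peak in 1 list only and for those with at least 3 peaks in a list. Alternatives were q-values under 0.01 and under 0.001, a minimum fold of 5, a 3 kb window, merging of peaks within 100 bp, a wild-type list reduced to the knockdown list's length, other definitions of overlap and a shorter motif window. Others were a restriction to protein-coding genes and counting peaks of any credit at the RefSeq start. The lists show peaks that passed the authors' threshold, so a gene without a peak is not shown to be unbound.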

Additional observations from a re-analysis of the deposited data

How the results depend on the processing

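Of the alternatives to the reported values, 57 stayed near them and 18 moved. With a fold of at least 5, promoter peaks were left at 18 genes in knockdown and 17 in both lists, the share of knockdown peaks with a counterpart was 100% and that of wild-type peaks 40.5%, the knockdown median fold was 6.60, and the other spliceosome genes with a knockdown promoter peak numbered 16. Under the same minimum the peaks outside promoters numbered 0 in knockdown and 7 in wild type. They numbered 3 in knockdown with q-values under 0.001, 3 in knockdown and 7 in wild type with a 3 kb window, and 3 in wild type when that list was shortened to as many peaks as in knockdown, which put the wild-type share with a counterpart at 87.2%. A reciprocal overlap of 50% gave shares of 59.1% in knockdown and 49.0% in wild type, and summits within 100 bp gave 68.2% in knockdown. With 100 bases before the start, the STAT motif was in 1 promoter and the E-box in 0. No paired analysis was possible because each condition has 1 peak list and no result comes from a test. With no read counts, depth could not be set equal between the lists.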

Other observations

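The promoters of the 40 splicing genes with a RefSeq sequence had a median GC content of 61.0% (range 36.0 to 80.3%), beside 62.7% for all 15812 protein-coding promoters. Their median ratio of observed to expected CpG was 0.95, beside 0.76. Splicing genes with a CCAAT match had a median peak fold of 6.41 in knockdown and 15.4 in wild type, and those without one 4.85 in knockdown and 9.54 in wild type. Over all protein-coding genes with a match the medians were 6.02 in knockdown and 13 in wild type. Without a match they were 5.05 in knockdown and 10.8 in wild type, so the same order held over all genes. These values were not tested.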
